A study of Mus musculus with 10 samples.

Results

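The 31 genes described here are genes of blood platelets and of megakaryocytes, the bone marrow cells that shed platelets. They were chosen by name, 31 of the 54146 genes of the expression table, and all 31 names were found. The genes comprise 9 adhesion receptors, 10 granule and secreted proteins, 4 agonist receptors and channels, and 8 proteins of the cytoskeleton, signalling and lipid metabolism. Their RNA was measured in peripheral neutrophils, sorted by the markers CD11b+ and Ly-6G+, of mice of the strain BALB/c nu/nu, which carries the nude mutation and lacks a working thymus. Human clear cell renal cell carcinoma cells, the line OS-RC-2 or its derivatives, had been placed in the kidney 14 days earlier. There were 5 groups of 2 libraries, which were vehicle (sham), the line labelled OSPa, and the lines labelled OS5K #1, OS5K #2 and OS5K #3. All mice shared the strain, and the labels call them untreated apart from the inoculation. The labels give no age, no account of how the OS5K lines were made, and do not say whether the 2 libraries of a group came from separate mice or from pools. The p-values below therefore measure the spread between these libraries, which may be technical. Levels are given as RPKM, reads scaled to exon length and to the library total. These totals, estimated from the deposited values, lay between 13765576 and 15514537 reads, and which reads they count is not given.

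Platelets have no nucleus but carry RNA made by the megakaryocyte. They stick to damaged vessel walls through the GPIb-IX-V complex and the collagen receptor GPVI, are activated by ADP and thrombin, aggregate through the integrin of Itga2b and Itgb3, and release chemokines and clotting proteins from granules. Activated platelets also bind leukocytes, neutrophils among them, mainly through P-selectin.

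Platelet transcripts were present in every library of sorted neutrophils, and the 2 libraries of every group differed, from 1.47-fold in OSPa to 2.19-fold in sham in summed level. The summed level of the 31 genes was 2346 and 1073 RPKM in the sham libraries, replicate 1 first, and 1705 and 2512 RPKM in OSPa. It was 1749 and 3085 RPKM in OS5K #1, 4290 and 2213 RPKM in OS5K #2, and 2197 and 4302 RPKM in OS5K #3. One library of each OS5K line was thus high, and the low sham library stood below all others. As a share of the estimated library total, the 31 genes took least in sham replicate 2, 0.263% (95% Wilson interval 0.260% to 0.265%). The highest share was 0.748% (0.743% to 0.753%) in OS5K #3 replicate 2, and intervals cover counting error only. In bulk RNA, fewer cells of a type and less RNA per cell cannot be told apart. The sum of 8 neutrophil genes lay between 63569 and 84184 RPKM in the 10 libraries. S100a8 alone stood at 19794 to 32631 RPKM, so the sum is no check of the sort markers. Their genes Ly6g and Itgam ranged over 52.7 to 101 RPKM and 35.4 to 68.2 RPKM. Ly6g was lowest in OS5K #3 replicate 2 (52.7 RPKM), then in OS5K #2 replicate 1 (60.02 RPKM). In OS5K #1 replicate 2, also high in platelet genes, Ly6g stood at 95.4 RPKM. Itgam was lowest in that library (35.4 RPKM), then in OS5K #2 replicate 1 (42.7 RPKM). In OS5K #3 replicate 2 Itgam stood at 61.2 RPKM, so Ly6g and Itgam differed in which of these libraries were low.

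The starting regions of the 5 lineage-restricted members of highest level that have an entry are printed because these genes moved together across libraries. Each is the stretch of 250 bases before the RefSeq start of the gene on build GRCm38.p6 (the same sequence as mm10), on the strand of the gene, with matches to AGGAAG (the core bound by ETS factors, or CTTCCT where it lies on the other strand) in capitals. The windows are chr5:90772185-90772434, plus strand for Pf4, chr5:90768268-90768517, plus strand for Ppbp, chr6:87777820-87778069, plus strand for Gp9, chr11:102469884-102470133, minus strand for Itga2b and chr2:174450345-174450594, plus strand for Tubb1.
Pf4: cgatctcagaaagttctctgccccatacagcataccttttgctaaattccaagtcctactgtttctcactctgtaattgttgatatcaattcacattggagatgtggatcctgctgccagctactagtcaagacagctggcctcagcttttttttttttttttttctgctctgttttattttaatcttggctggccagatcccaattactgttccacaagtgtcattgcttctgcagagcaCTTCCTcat
Ppbp: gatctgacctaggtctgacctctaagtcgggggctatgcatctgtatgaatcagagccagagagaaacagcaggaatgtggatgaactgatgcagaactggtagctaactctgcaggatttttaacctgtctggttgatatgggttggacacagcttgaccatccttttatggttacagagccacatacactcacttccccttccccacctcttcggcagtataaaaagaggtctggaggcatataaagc
Gp9: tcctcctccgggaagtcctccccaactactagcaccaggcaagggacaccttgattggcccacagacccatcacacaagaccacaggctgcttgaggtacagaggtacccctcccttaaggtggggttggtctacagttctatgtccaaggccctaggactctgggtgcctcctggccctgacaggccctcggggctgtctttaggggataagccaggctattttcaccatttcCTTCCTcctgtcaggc
Itga2b: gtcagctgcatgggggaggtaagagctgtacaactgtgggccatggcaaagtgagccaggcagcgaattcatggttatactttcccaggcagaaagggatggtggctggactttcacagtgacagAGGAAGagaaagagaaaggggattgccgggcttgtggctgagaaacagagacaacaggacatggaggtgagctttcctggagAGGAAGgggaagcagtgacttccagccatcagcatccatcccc
Tubb1: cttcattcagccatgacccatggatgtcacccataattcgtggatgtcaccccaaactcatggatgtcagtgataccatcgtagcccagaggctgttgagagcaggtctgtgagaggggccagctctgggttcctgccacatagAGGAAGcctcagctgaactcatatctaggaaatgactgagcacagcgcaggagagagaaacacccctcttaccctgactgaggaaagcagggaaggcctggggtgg
The match nearest the RefSeq start lay 9 bases before it in Pf4, 16 in Gp9, 43 in Itga2b and 106 in Tubb1. Itga2b held another 125 bases before that start, and the Ppbp window held none. For Gp9, Itga2b and Tubb1 the RefSeq start differs from the start in the expression table. The Gp9 window ends at 87778069, shortly before the start at 87778072 in the expression table. That table starts Itga2b at base 102470122 on the minus strand, so most of its window lies inside the gene. The Tubb1 window ends at 174450594, before the start at 174450695 in that table. Of the members, 25 had an entry. AGGAAG on either strand was found in 11 of these 25 windows and in 29.5% of all 32851 windows of that length. The GATA motifs AGATAA and TGATAA, on either strand, were found in 8 of 25 and in 16.6% of all windows. The longer NF-E2 motif was found in none of the 25 and in 0.134% of all windows. These are matches of letters in a window and say nothing of binding.

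Values of single genes are given in pairs, replicate 1 before replicate 2. Among the adhesion receptors, Cd9 had the highest level and the smallest range. Cd9 encodes a tetraspanin of the platelet membrane that leukocytes also carry. Its level was 187 and 154 RPKM in sham, 187 and 208 in OSPa, 167 and 219 in OS5K #1, 247 and 187 in OS5K #2, and 194 and 293 in OS5K #3. The libraries lay within 1.90-fold of each other. Gp9 (chr6:87778072-87779768, mm10) encodes the GPIX subunit of the von Willebrand factor receptor. Gp9 stood at 30.4 and 6.98 RPKM in sham, 13.7 and 31.5 in OSPa, 25.7 and 44.1 in OS5K #1, 76.01 and 36.4 in OS5K #2, and 32.3 and 58.5 in OS5K #3. The range was 10.9-fold, lowest in sham replicate 2 and highest in OS5K #2 replicate 1. Itga2b (chr11:102453297-102470122) encodes the alpha IIb chain of the fibrinogen receptor, its partner chain beta 3 coming from Itgb3. The level of Itga2b was 31.1 and 7.72 RPKM in sham, 13.1 and 32.2 in OSPa, 15.7 and 26.2 in OS5K #1, 48.2 and 25.01 in OS5K #2, and 21.5 and 39.1 in OS5K #3. For Itgb3 it was 15.9 and 7.23 RPKM in sham, 7.80 and 18.2 in OSPa, 13.5 and 17.97 in OS5K #1, 30.2 and 15.7 in OS5K #2, and 15.5 and 25.7 in OS5K #3. Both chains were lowest in sham replicate 2, and in each OS5K line the same library was high for both.

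Gp1bb, Gp1ba and Gp5 encode the remaining chains of the von Willebrand factor receptor. Gp1bb (chr16:18620317-18622403) stood at 11.8 and 2.44 RPKM in sham, 4.40 and 14.8 in OSPa, 14.6 and 27.8 in OS5K #1, 39.03 and 18.5 in OS5K #2, and 14.9 and 32.3 in OS5K #3. It had the widest range of the tested members, 15.98-fold. Of its 2087 exon bases, 1902 also belong to Sept5 on the same strand (mean 2.72 RPKM), so its values are uncertain. Gp5 stood at 14.8 and 3.72 RPKM in sham, 6.37 and 16.7 in OSPa, 8.31 and 15.9 in OS5K #1, 26.7 and 12.9 in OS5K #2, and 10.6 and 22.1 in OS5K #3. It covered 7.18-fold, again from sham replicate 2 to OS5K #2 replicate 1. Gp1ba, the chain that binds von Willebrand factor, ranged over 1.46 to 10.2 RPKM (57 to 400 reads). Clec1b encodes CLEC-2, the platelet receptor for podoplanin. Clec1b stood at 11.2 and 4.75 RPKM in sham, 8.01 and 14.2 in OSPa, 9.22 and 20.4 in OS5K #1, 29.2 and 13.8 in OS5K #2, and 13.2 and 27.3 in OS5K #3. Of its exon bases, 184 are shared with Clec9a, which averaged 0.676 RPKM. Gp6, the collagen receptor, ranged over 1.21 to 7.09 RPKM (102 to 576 reads) and was highest in OS5K #3 replicate 2.

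Granule proteins held the most abundant member, Pf4 (chr5:90772435-90773383), which encodes the chemokine platelet factor 4 of alpha granules. The level of Pf4 was 404 and 133 RPKM in sham, 237 and 393 in OSPa, 335 and 589 in OS5K #1, 854 and 392 in OS5K #2, and 405 and 841 in OS5K #3. OS5K #2 replicate 1 and OS5K #3 replicate 2 stood above the rest, and the lowest library of OS5K lay between the 2 sham values. Ppbp (chr5:90768518-90770063), the neighbour of Pf4 on the same strand of chromosome 5, encodes the chemokine precursor of NAP-2. Ppbp stood at 117 and 41.01 RPKM in sham, 98.6 and 157 in OSPa, 147 and 294 in OS5K #1, 403 and 157 in OS5K #2, and 136 and 418 in OS5K #3. All 6 OS5K values lay above both sham values, and the range was 10.2-fold. Treml1 encodes TLT-1, a receptor kept in alpha granules. Treml1 stood at 15.1 and 3.24 RPKM in sham, 5.38 and 18.7 in OSPa, 12.5 and 19.2 in OS5K #1, 31.02 and 14.1 in OS5K #2, and 14.2 and 23.01 in OS5K #3. Clu encodes clusterin, a secreted chaperone that platelets store. Its level was 31.9 and 8.88 RPKM in sham, 15.6 and 36.00 in OSPa, 21.03 and 41.7 in OS5K #1, 64.5 and 31.4 in OS5K #2, and 27.2 and 52.4 in OS5K #3. Both genes were lowest in sham replicate 2 and highest in OS5K #2 replicate 1.

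F5 encodes coagulation factor V, stored in alpha granules. For F5 the values were 14.4 and 10.1 RPKM in sham, 11.6 and 17.7 in OSPa, 12.9 and 18.5 in OS5K #1, 24.7 and 15.1 in OS5K #2, and 15.6 and 26.2 in OS5K #3. Its range, 2.58-fold, was narrower than that of Pf4. Thbs1 encodes thrombospondin 1, an adhesive granule protein that other cells also make. Thbs1 stood at 7.16 and 3.33 RPKM in sham, 3.91 and 7.83 in OSPa, 5.06 and 6.52 in OS5K #1, 10.8 and 4.82 in OS5K #2, and 5.83 and 10.1 in OS5K #3. The remaining granule genes were low. Mmrn1 (multimerin, the carrier of factor V) ranged over 1.14 to 7.85 RPKM (96 to 667 reads) and Vwf (von Willebrand factor, also made by endothelium) over 0.861 to 6.64 RPKM (198 to 1546 reads). Selp, which encodes P-selectin and adjoins F5 on chromosome 1, ranged over 2.30 to 5.37 RPKM (140 to 355 reads). Selp did not follow the other members, since it was highest in OSPa replicate 2 and lowest in OS5K #3 replicate 2, the library in which F5 was highest. Sparc (osteonectin) had 0 to 7 reads in a library and was not tested. A count of 0, seen for Sparc in sham replicate 2 and OSPa replicate 2, allows up to 0.0553 and 0.0528 RPKM.

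Agonist receptors and channels were the lowest group. P2ry12 encodes the ADP receptor blocked by clopidogrel. P2ry12 stood at 14.4 and 8.23 RPKM in sham, 9.08 and 18.2 in OSPa, 8.72 and 15.7 in OS5K #1, 25.7 and 10.4 in OS5K #2, and 13.1 and 26.8 in OS5K #3. It was highest in OS5K #3 replicate 2 and lowest in sham replicate 2. P2rx1 encodes an ATP-gated channel that neutrophils are also known to carry. P2rx1 stood at 4.82 and 1.57 RPKM in sham, 2.35 and 4.52 in OSPa, 4.14 and 6.23 in OS5K #1, 11.3 and 4.79 in OS5K #2, and 4.84 and 8.83 in OS5K #3. The range was 7.17-fold. F2rl2 (PAR3, the cofactor for thrombin signalling in mouse platelets) ranged over 0.0279 to 0.871 RPKM (1 to 30 reads) and Trpc6, a calcium channel, over 0.0646 to 0.488 RPKM (5 to 34 reads). Neither passed the filter of 1 RPKM in 2 libraries.

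In the last group, Gng11, a gamma subunit of G proteins, was second in level to Pf4. Gng11 stood at 358 and 124 RPKM in sham, 264 and 358 in OSPa, 234 and 491 in OS5K #1, 701 and 311 in OS5K #2, and 322 and 753 in OS5K #3. Ctla2a encodes an inhibitor of cysteine proteases. Ctla2a stood at 420.2 and 128 RPKM in sham, 228 and 395 in OSPa, 222 and 411 in OS5K #1, 648 and 322 in OS5K #2, and 313 and 592 in OS5K #3. It has a close copy, Ctla2b, and shares 343 exon bases with a predicted gene, and how its reads were divided among them is uncertain. Nrgn encodes neurogranin, a calmodulin-binding protein found in neurons and platelets. Nrgn stood at 221 and 68.3 RPKM in sham, 148 and 258 in OSPa, 115 and 253 in OS5K #1, 376 and 174 in OS5K #2, and 173 and 364 in OS5K #3. In all 3 of these genes the order of the 2 libraries in each group was that of Pf4. Myl9 encodes a regulatory light chain of myosin. Myl9 stood at 76.4 and 18.5 RPKM in sham, 34.7 and 90.4 in OSPa, 54.5 and 97.5 in OS5K #1, 161 and 78.99 in OS5K #2, and 68.7 and 146 in OS5K #3. Tubb1 encodes beta 1 tubulin, the tubulin of the platelet marginal band. Tubb1 stood at 21.6 and 5.26 RPKM in sham, 9.86 and 22.8 in OSPa, 14.7 and 24.2 in OS5K #1, 43.3 and 18.98 in OS5K #2, and 18.3 and 33.8 in OS5K #3. Their ranges were 8.68-fold and 8.23-fold.

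Alox12 encodes platelet 12-lipoxygenase. For Alox12 the values were 15.1 and 4.26 RPKM in sham, 8.24 and 18.9 in OSPa, 8.35 and 17.5 in OS5K #1, 27.8 and 13.3 in OS5K #2, and 12.3 and 22.9 in OS5K #3. Rgs18 encodes a regulator of G protein signalling of platelets that granulocytes also express. For Rgs18 the values were 69.04 and 52.3 RPKM in sham, 97.8 and 89.1 in OSPa, 58.1 and 128 in OS5K #1, 136 and 78.4 in OS5K #2, and 84.4 and 176 in OS5K #3. Its range was 3.37-fold, and both OSPa values lay above both sham values. Plek encodes pleckstrin, the main protein kinase C substrate of platelets, which leukocytes share. For Plek the values were 235 and 268 RPKM in sham, 279 and 271 in OSPa, 228 and 277 in OS5K #1, 241 and 259 in OS5K #2, and 263 and 279 in OS5K #3. The whole range of Plek was 1.23-fold, the narrowest of all tested members, and the lowest library was OS5K #1 replicate 1.

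**Figure D1:**
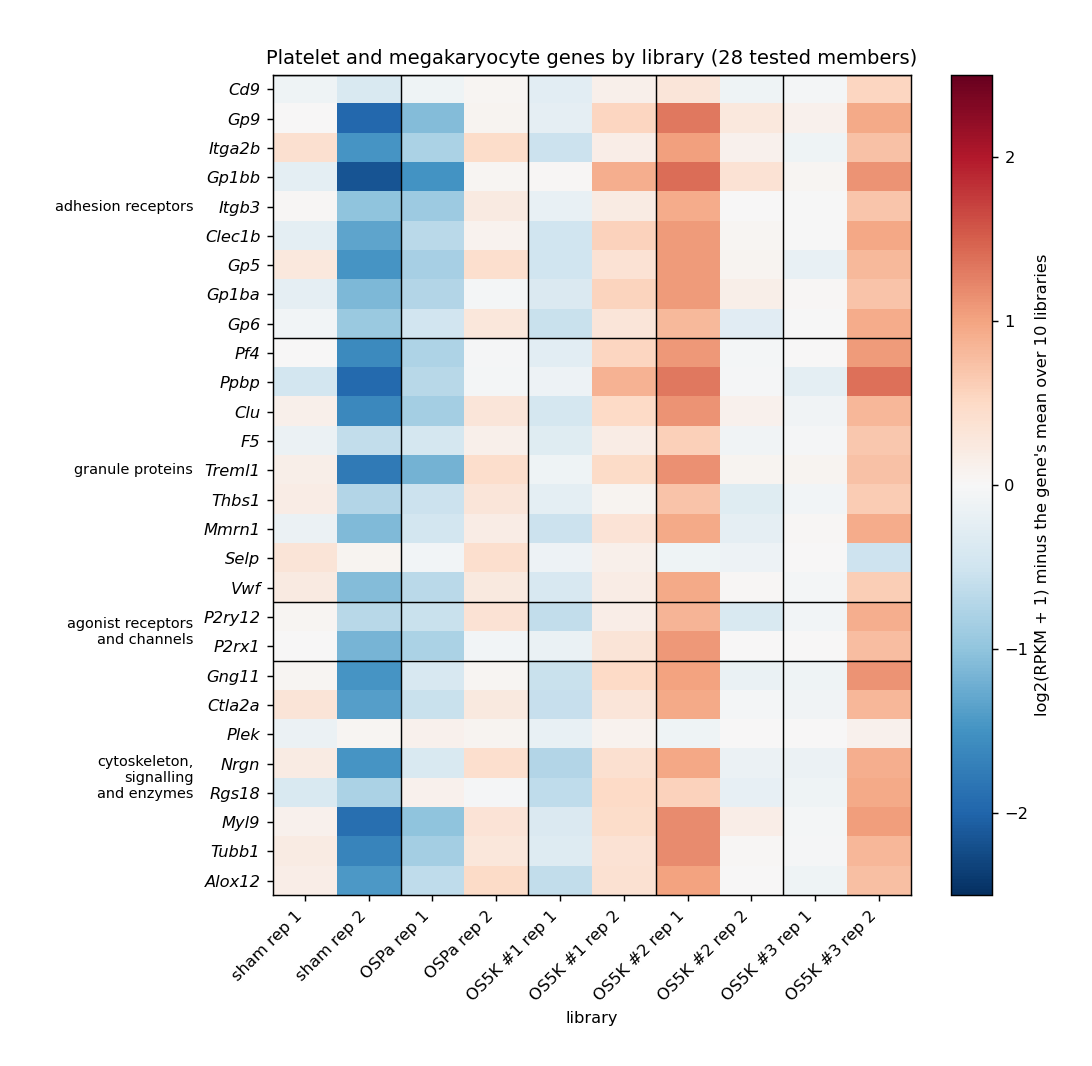
Level of the 28 tested platelet and megakaryocyte genes in each of the 10 libraries, as log2(RPKM + 1) minus the mean of the gene over the 10 libraries, with black lines between groups and between roles. Sham replicate 2 is the lowest library in 26 of 28 genes, and 1 library of each OS5K line stands above the other, while Plek and Selp show other patterns.

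Within each OS5K line the 2 libraries were split. Replicate 2 was higher in OS5K #1, replicate 1 in OS5K #2 and replicate 2 in OS5K #3. This order, read from the values themselves, was followed by 26 of the 28 tested members, and by 16.8% of all 8039 genes tested. Counting the genes below the filter, 27 of 31 followed it, the exceptions being Selp, Plek, Sparc and F2rl2. All 3 differences reached 0.5 on the log2(RPKM + 1) scale in 21 of the 28 members and in 1.31% of all genes. The 3 high libraries were also the 3 highest of all 10 in 17 of the 28 members, against 2.03% of all genes. The high library did not have the same replicate number in the 3 lines, so the split does not follow the number.

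The median difference over the 28 members, as replicate 1 minus replicate 2 in log2(RPKM + 1), was -0.82 in OS5K #1, 1.02 in OS5K #2 and -0.87 in OS5K #3. Over all tested genes the medians were 0.06, -0.06 and 0.06. For Pf4 the ratio of replicate 1 to replicate 2 was 0.569 in OS5K #1, 2.18 in OS5K #2 and 0.481 in OS5K #3. For Gng11 the ratios were 0.477, 2.25 and 0.428. The other 2 groups were split as well. In sham, replicate 1 exceeded replicate 2 with a median difference of 1.40, the widest of the 5 groups, and in OSPa replicate 2 exceeded replicate 1 with a median difference of -0.79. Sham replicate 2 was the lowest of all 10 libraries in 26 of 28 members and in 10.3% of all genes. The median residual SD within groups was 0.74 over the tested members and 0.17 over all tested genes, both in log2(RPKM + 1).

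**Figure D2:**
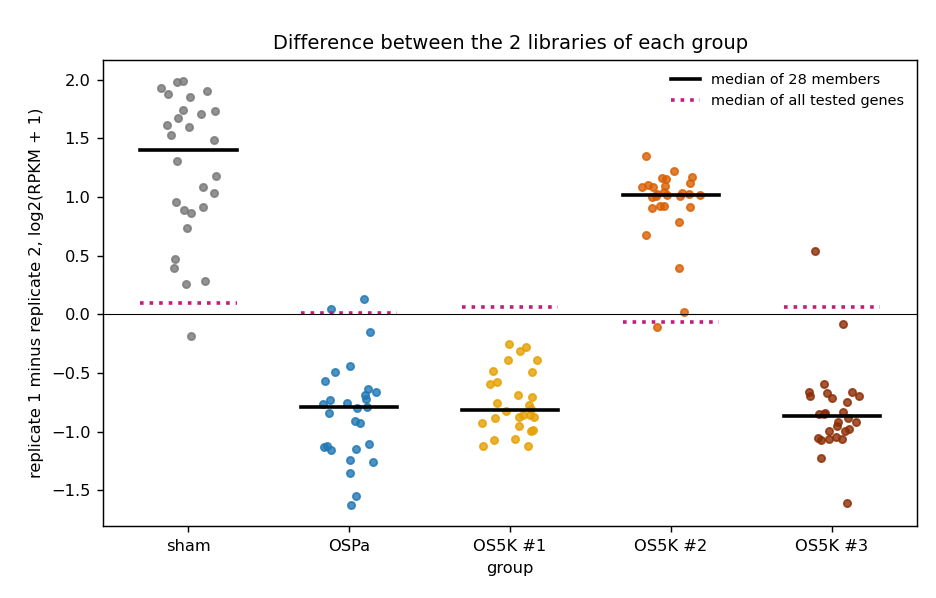
Difference between the 2 libraries of each group, as replicate 1 minus replicate 2 in log2(RPKM + 1), with 1 point for each of the 28 tested members, a black line at their median and a dotted line at the median of all 8039 tested genes. The member medians lie at 1.40 in sham, -0.79 in OSPa, -0.82 in OS5K #1, 1.02 in OS5K #2 and -0.87 in OS5K #3, away from the medians of all genes near 0.

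The members mostly moved by like factors. Among the 23 with a mean of at least 5 RPKM, the median ratio of the highest to the lowest library was 6.24, and 20 of the 23 ranged over more than 3-fold. Among all 4072 genes of that level and above 0 in every library, the median was 1.49 and 5.01% ranged over more than 3-fold. The ratio to Pf4, taken within each library, shows how far single genes departed. For Clec1b this ratio varied 1.32-fold over the 10 libraries and for P2rx1 1.33-fold. For Gp1bb it varied 2.58-fold, for Rgs18 2.59-fold, for Cd9 4.002-fold and for Plek 7.14-fold. Plek, Cd9 and Rgs18 are among the 8 members known also in leukocytes or endothelium, whose summed level, made up mostly of Plek and Cd9, ranged from 489 to 826 RPKM. Of the same 8, Vwf ranged over 7.72-fold, Clu over 7.27-fold, P2rx1 over 7.17-fold and Thbs1 over 3.24-fold, and 6 of the 8 followed the OS5K order. The sum of the 10 lineage-restricted members (Pf4, Ppbp, Itga2b, Gp9, Gp1ba, Gp1bb, Gp5, Gp6, Treml1 and Tubb1) ranged from 206 to 1538 RPKM.

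No member was called in any comparison of groups. With OS5K taken as the mean of its 3 lines, 26 of the 28 tested members had a positive log2 fold change against OSPa (54.6% of all genes), with a median of 0.46 (0.02 over all genes). Against sham 27 of 28 were positive (45.5% of all genes), with a median of 0.87 (-0.02 over all genes). For OSPa against sham 27 of 28 were positive (41.3% of all genes), with a median of 0.41 (-0.04 over all genes). The members share their libraries and moved together within groups, so these counts are not independent. The 3 comparisons share libraries too. For OS5K against OSPa the median was 0.04 without OSPa replicate 1 and 0.95 without OSPa replicate 2. Without sham replicate 2 the median for OSPa against sham was -0.28, and without sham replicate 1 it was 1.11.

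In the limma test with Benjamini-Hochberg adjustment over all genes, 28 of 8039 genes were called between OS5K and OSPa (0.348%), none of them a member. At an unadjusted p under 0.05, 1 member was higher in OS5K, Gp1bb, against 5.97% of all genes, and no member was lower. Gp1bb differed by 1.37 ± 0.58 (SE) on the log2 scale, with a limma adjusted p of 0.60. For Pf4 the log2 fold change was 0.80 with a 95% interval from -0.28 to 1.88, and for Ppbp 0.90 with an interval from -0.34 to 2.13. For Plek it was -0.10 with an interval from -0.34 to 0.15. No member had 6 OS5K libraries above both OSPa libraries, a pattern seen in 5.45% of all genes.

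Between OSPa and sham, limma called 0 genes (0% of 8039), and 480 genes passed an unadjusted p under 0.05. No member passed that unadjusted threshold, while 1.7% of all genes passed it with a higher level in OSPa. Rgs18 and Plek were the only members with both OSPa libraries above both sham libraries, a pattern seen in 12.4% of all genes. In limma, Rgs18 was 0.63 ± 0.43 (SE) higher in log2 terms, with an adjusted p of 0.83, and Plek 0.13 ± 0.13 (SE), with an adjusted p of 0.85. For Pf4 the log2 fold change was 0.39, with a 95% interval from -0.93 to 1.71.

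Between OS5K and sham, limma also called 0 genes (0% of 8039), and 838 passed an unadjusted p under 0.05. At that unadjusted threshold 8 members were higher in OS5K, against 5.49% of all genes, and none was lower. They were Pf4, Ppbp, Gp9, Gp1ba, Gp1bb, Clec1b, Myl9 and P2rx1, and the smallest adjusted p among them in limma was 0.33. In limma, the log2 difference was 1.73 ± 0.55 (SE) for Ppbp, with an adjusted p of 0.33. It was 1.46 ± 0.53 for Gp9, with a limma adjusted p of 0.38, and 1.19 ± 0.48 for Pf4, with a limma adjusted p of 0.43. Ppbp and Gp1bb had all 6 OS5K libraries above both sham libraries, as had 6.66% of all genes. The median over the members ranged from 0.24 without sham replicate 2 to 1.64 without sham replicate 1.

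Among the 3 OS5K lines the limma F test called 0 genes (0%), and 535 genes (6.66%) but no member passed an unadjusted p under 0.05. Among the 5 groups it called 1 gene (0.0124%), which is no member, and 686 genes (8.53%) but no member passed at the unadjusted threshold. For scale, the summed level of the members differed 1.41-fold between the mean of OS5K and that of OSPa. Between the 2 libraries of a group it differed 1.47-fold in OSPa and 1.76-fold to 1.96-fold in the OS5K lines. In sham the 2 libraries differed 2.19-fold, and the mean was 1710 RPKM in sham and 2972 RPKM in OS5K.

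**Figure D3:**
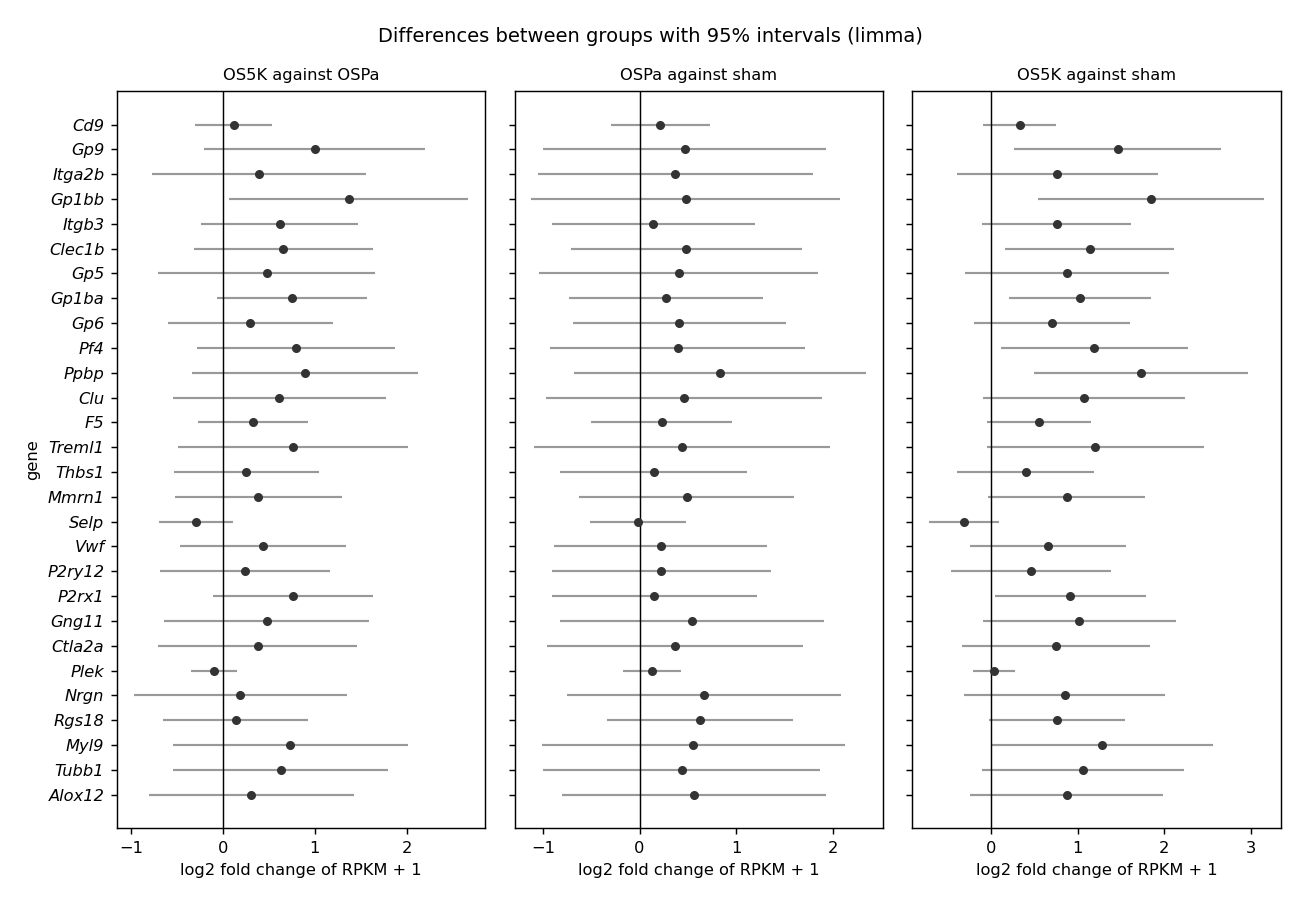
Log2 fold changes of RPKM + 1 for the 28 tested members in the 3 comparisons of groups, as points with 95% intervals from limma. Most points lie above 0 and most intervals include 0, and Plek, Selp and Cd9 have the narrowest intervals.

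Other genes of platelets were taken from lists of 68 genes that hold no member. Of these, 49 were tested and limma called 0 of them in each of the 3 comparisons, while 3 had an unadjusted p under 0.05 among the 5 groups. The order of the OS5K libraries seen in the members was followed by 19 of the 49 (38.8%, against 16.8% of all genes). It was followed by 6 of 6 integrins and junction proteins (Itga6, Itgb1, Cd226, Pecam1, Esam and F11r), but by 1 of 7 genes of signalling from ITAM receptors and 2 of 9 of the cytoskeleton. Cd226, a receptor shared by platelets and lymphocytes, stood at 18.8 and 7.02 RPKM in sham, 15.4 and 23.4 in OSPa, 7.33 and 23.7 in OS5K #1, 31.7 and 12.9 in OS5K #2, and 17.3 and 35.6 in OS5K #3. It followed the order of Pf4 in all 5 groups. Syk, a kinase that platelets share with neutrophils, stayed between 54.0 and 73.9 RPKM. The thrombin receptors F2r and F2rl3 and the thromboxane receptor Tbxa2r stayed under 1 RPKM in every library. F13a1, the coagulation factor XIII A chain of platelets and also of monocytes, stood at 5.49 and 2.32 RPKM in sham, 3.22 and 7.37 in OSPa, 9.88 and 18.7 in OS5K #1, 26.1 and 11.7 in OS5K #2, and 13.1 and 27.05 in OS5K #3. For OS5K against OSPa the log2 difference was 1.56 ± 0.43 (SE), with a limma adjusted p of 0.25.

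Markers of other blood cells mostly did not follow the order of the OS5K libraries seen in the members. That order was followed by 0 of 8 tested neutrophil genes, 0 of 6 secondary granule genes and 0 of 12 erythroid genes. It was also followed by 0 of 6 B cell, 0 of 4 T or NK cell and 0 of 3 eosinophil genes, against 16.8% of all genes. The summed level of 6 genes from a list of secondary granule proteins, most of which are transcribed mainly before neutrophils leave the marrow, was 1051 and 714 RPKM in sham, 1131 and 1032 in OSPa, 1175 and 563 in OS5K #1, 410.1 and 836 in OS5K #2, and 1022 and 377 in OS5K #3. The 3 OS5K libraries high in platelet genes had the 3 lowest sums. Ltf (lactoferrin) stood at 135 and 80.9 RPKM in sham, 132 and 126 in OSPa, 129 and 27.97 in OS5K #1, 22.9 and 84.7 in OS5K #2, and 105 and 20.47 in OS5K #3. Camp, which encodes the antimicrobial peptide CRAMP, stood at 166 and 104 RPKM in sham, 213 and 138 in OSPa, 149 and 39.9 in OS5K #1, 28.6 and 90.1 in OS5K #2, and 155 and 28.6 in OS5K #3. Both were lowest in those 3 libraries. Lcn2 and Cybb did not follow the sum, since Lcn2 was highest of all in OS5K #1 replicate 2 (291 RPKM) and Cybb, a subunit of the NADPH oxidase that mature neutrophils express, in OS5K #3 replicate 2 (25.4 RPKM). None of the 6 genes of the list was called in limma. Over 16 erythroid genes, 12 of them tested, the sum ranged from 20845 to 121868 RPKM. It was 61260 and 52786 RPKM in the sham libraries and 20845 and 27963 RPKM in OSPa, replicate 1 first. In OS5K it ranged from 45007 to 121868 RPKM, and 12 of the 12 tested had a positive log2 fold change between OS5K and OSPa (median 1.55), 4 of them called in limma. The highest erythroid sum was in OS5K #1 replicate 1, a library low in platelet genes. Of 12 monocyte genes, 11 were tested, and 11 of the 11 had a positive log2 fold change between OS5K and OSPa (median 1.03). In limma, Ccr2 and Ms4a6c were called, each at 1.98 on the log2 scale with an adjusted p of 0.028. Ccr2, a chemokine receptor, stood at 1.52 and 0.599 RPKM in sham, 0.574 and 0.345 in OSPa, 2.86 and 2.73 in OS5K #1, 2.48 and 5.39 in OS5K #2, and 7.39 and 12.1 in OS5K #3. The sum of the 12 ranged from 185 to 276 RPKM, and 1 of the 11 followed the order of the OS5K libraries seen in the platelet genes. That gene was F13a1, which was also counted among the other genes of platelets above. The 8 endothelial genes, Cdh5 and Kdr among them, summed to at most 1.21 RPKM in a library, the 5 basophil and mast cell genes to at most 2.61 RPKM and the 6 progenitor and proliferation genes to at most 1.65 RPKM. The part of these other cells in the differences between libraries was not tested.

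**Figure D4:**
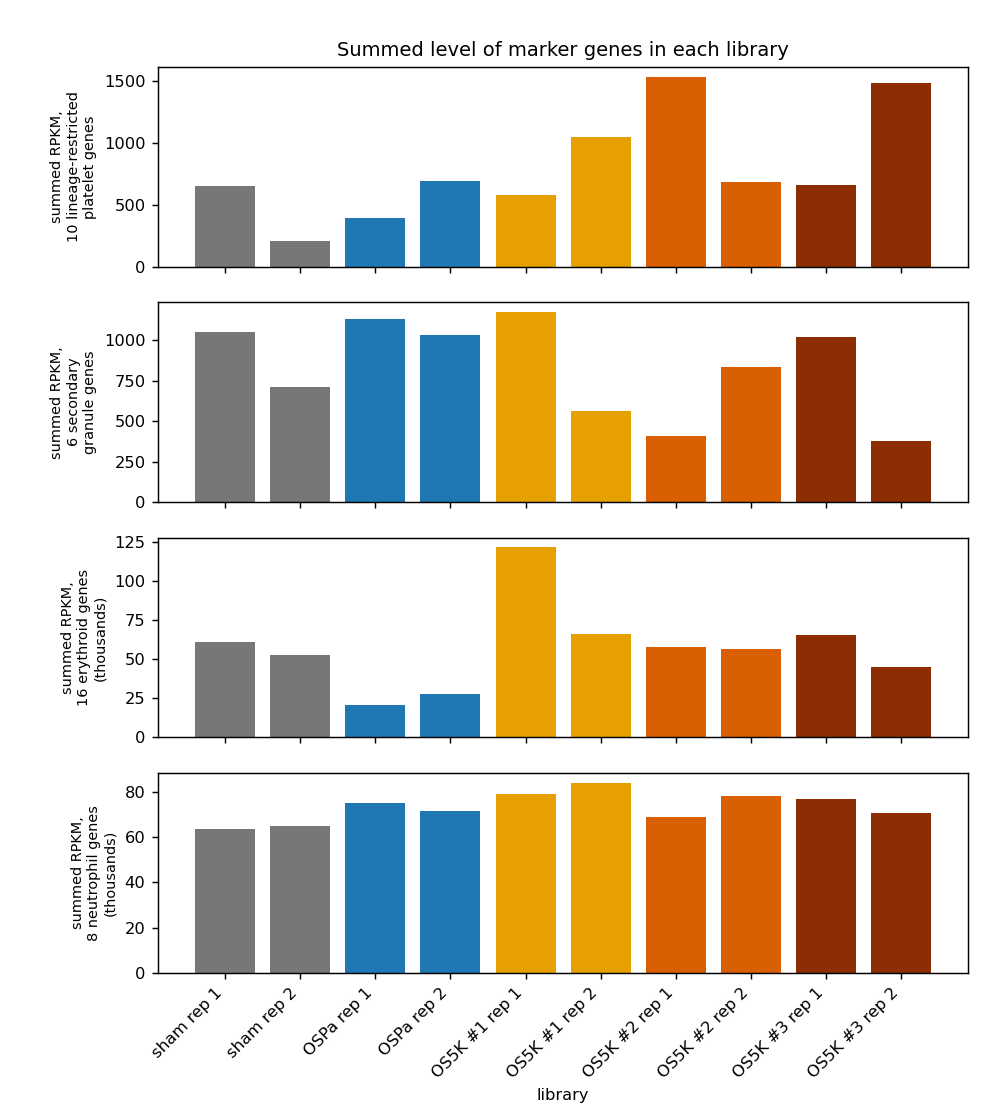
Summed RPKM in each of the 10 libraries for the 10 lineage-restricted platelet genes, 6 secondary granule genes, 16 erythroid genes and 8 neutrophil genes, from top to bottom, with bars starting at 0 and coloured by group. The platelet sum is highest in the OS5K libraries with the lowest secondary granule sums, at 1051, 1538 and 1482 RPKM, while the neutrophil sum lies between 63569 and 84184 RPKM.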

How the data were processed

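The 10 RNA-seq libraries came from sorted neutrophils of 5 groups, with 2 libraries a group. The labels' protocols name an RNeasy kit for RNA, a SMART-Seq v4 kit for cDNA and an Ion Xpress Plus kit for fragment libraries. The authors deposited RPKM values per gene for every library. The submitters' processing notes name mm10. How reads were aligned and counted, with which strand rule and which treatment of several matches, is not given in the sources used here. Values of close copies and overlapping genes are therefore uncertain.

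Reads were recovered from the steps of the deposited RPKM values with exon lengths of GENCODE M21. Within 0.02 reads of a whole number lay 84.7% of the nonzero values. The largest total was 1.13 times the smallest. Of the 31 members, all deviated from whole reads by less than that tolerance.

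Values were transformed as log2(RPKM + 1), which understates changes of low genes. A gene needed 1 RPKM or more in 2 or more libraries, and the 8039 that passed, 28 members among them, were fitted with limma 3.58.1 (trend and robust settings, R 4.3.3) as 5 group means, which left 5 residual degrees of freedom. OS5K (averaged over its lines) was contrasted with OSPa and with sham, and OSPa with sham, with F tests among the OS5K lines and among all groups. Calls needed an adjusted p (Benjamini-Hochberg, over all genes tested) under 0.05. The procedure was tested on simulated data in which genes varied independently of each other. The members moved together and spread more within groups than most genes, so that test does not show how well changes in them would be found. Sums, ratios and differences between libraries carry no test.

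The members and lists were chosen with earlier results of these data known. Members of at least 5 RPKM on average are given in every library and others by range. Other genes come from lists, with at most 4 named per list by the smallest p among the 5 groups, and the 10 genes most like the members by correlation. Pecam1, Esam and the receptors under 1 RPKM were named after their values were seen. Motifs were searched on both strands of RefSeq start windows.

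Replicate numbers were checked for pairing. Deviations of same-numbered libraries correlated between -0.38 (OS5K #2 with OS5K #3) and 0.45 (OS5K #1 with OS5K #3), and at -0.33 for OS5K #1 with OS5K #2. The numbers as given therefore do not pair the libraries across all groups. A pairing of the OS5K lines with the numbers of OS5K #2 crossed was not fitted, so a factor shared by libraries of different lines was not tested. Alternatives were a replicate block, other pseudocounts (0.1 and 5), no filter and a filter of 5 RPKM, quantile normalization, median centring, RPKM without hemoglobin reads, limma without trend and robust settings, fits of only the groups compared, limma-voom on recovered reads (scaled to their total over the tested genes), and leaving out each library.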

Additional observations from a re-analysis of the deposited data

How the results depend on the processing

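In all 22 alternative fits the number of members called was 0 in each comparison, as in the results given above. Quantile normalization, median centring, hemoglobin-free RPKM and limma-voom moved the median of all genes by less than 0.06 on the log2 scale. The cause of the changes below was not tested. Counts of all genes called moved. Without a filter they were 15 for OS5K against OSPa, 9 for OSPa against sham, 2 for OS5K against sham, 7 among the OS5K lines and 14 among the 5 groups. With limma-voom on recovered reads they were 21 for OS5K against OSPa and 4 among the 5 groups, and 0 in the other comparisons. Among the 5 groups the count was 0 with the replicate block, with hemoglobin-free RPKM and without trend and robust settings. With the replicate block 21 genes were called for OS5K against OSPa, against 28 without it, and 0 in the other comparisons. Since the numbers of sham and OSPa correlated at -0.19, a crossed pairing was added after seeing the data, and it called 0 members.

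Leaving out 1 library at a time gave 1 to 60 genes for OS5K against OSPa, 0 to 3 for OSPa against sham, 0 to 30 for OS5K against sham and 0 to 13 among the 5 groups, and 0 members throughout. The median log2 fold change of the members then ranged from 0.04 to 0.95 for OS5K against OSPa, from -0.28 to 1.11 for OSPa against sham and from 0.24 to 1.64 for OS5K against sham. The ratio of summed levels ranged from 1.18 to 1.74, from 0.899 to 1.97 and from 1.27 to 2.77.

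Values of single members were followed across the fits for Pf4, Ppbp, Gp9, Itga2b, Plek and Selp only, and the sign of some of these turned. For OSPa against sham, Selp (-0.02) became 0.046 with quantile normalization and 0.041 with median centring, and ranged from -0.26 to 0.23 with a library left out. In that comparison Pf4 ranged from -0.40 to 1.19, Gp9 from -0.52 to 1.45 and Itga2b from -0.57 to 1.31. Itga2b ranged from -0.23 to 1.01 for OS5K against OSPa and from -0.18 to 1.70 for OS5K against sham, and Plek from -0.059 to 0.13 for OS5K against sham. A lone library left in a group was assumed to vary like the other groups. With 2 libraries a group, differences smaller than the splits between libraries could not be told from them.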

Other observations

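Outside the 31 members and the lists, the genes whose level followed the platelet genes most closely were taken from 3886 genes of at least 5 RPKM on average, members included. Likeness is Pearson's r of log2(RPKM + 1) with the mean of the 10 lineage-restricted members over the 10 libraries. All genes were measured in the same 10 libraries, which fall into groups, and r is a description. The 10 genes of highest r were Ctla2b, Npy, Mpig6b, Pcmt1, Hpse, Serpinb6a, S100a10, Gabarapl1, S100a1 and Tsc22d1, with r from 0.958 to 0.997 and Spearman's rho from 0.879 to 0.988. Without OS5K #2 replicate 1 and sham replicate 2, the libraries farthest from the median, r ranged from 0.887 to 0.994. In all, 35 of these genes outside the members had r over 0.9.

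Npy, which encodes neuropeptide Y, a transmitter of sympathetic nerves, stood at 41.2 and 13.3 RPKM in sham, 23.9 and 48.4 in OSPa, 40.6 and 60.5 in OS5K #1, 96.97 and 46.1 in OS5K #2, and 37.6 and 75.9 in OS5K #3. Its range was 7.28-fold, with the same high and low libraries as Pf4. Mpig6b, which encodes an inhibitory receptor of megakaryocytes and platelets, stood at 3.93 and 1.17 RPKM in sham, 2.02 and 6.05 in OSPa, 3.38 and 6.98 in OS5K #1, 11.6 and 5.06 in OS5K #2, and 4.68 and 9.18 in OS5K #3. Ctla2b, the close copy of Ctla2a, stood at 23.7 and 6.32 RPKM in sham, 11.1 and 27.7 in OSPa, 17.7 and 32.9 in OS5K #1, 51.2 and 24.5 in OS5K #2, and 25.2 and 48.3 in OS5K #3. For the latter, reads may be shared with its copy. S100a10, which encodes the annexin A2 partner p11, ranged from 16.8 to 105 RPKM, and Hpse, which encodes heparanase, from 1.89 to 9.41 RPKM. Each was lowest in sham replicate 2.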
